A study of Mus musculus with 8 samples.

Results

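Lct, Sox4, Nptx2, Il27ra, Dhrs7 and Robo3 were followed as the 6 genes listed for the dorsal pattern among dentate granule cells (DGCs), out of 46517 genes in the whole-tissue tables and 24051 genes in the tables of nuclei, and all 6 were found in both. Whole-hippocampus RNAseq (bulk RNAseq) and single nucleus RNAseq (snRNAseq) had each been made from 2 Gfap-Cre;Wlsfl/- mice (mutant) and 2 Gfap-Cre;Wlsfl/+ mice (control), with both hippocampi of 1 mouse in each of the 8 libraries. All of the mice carried Cre recombinase under the Gfap promoter, so that the control was also recombined, but at 1 floxed copy of Wls beside a wild-type copy, whereas the mutant had a floxed copy beside a null copy. The mice were adult, and a Gfap promoter of this kind drives Cre in the progenitors of hippocampal neurons and astrocytes. The study showed the genes on maps of these same nuclei beside in situ hybridization patterns and does not state how it chose them, so a direction that they share among DGC nuclei is not independent evidence of a dorsal loss.

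The dentate gyrus forms from a stem cell zone beside the cortical hem, a source of Wnts, and Wls is the carrier protein that Wnts need to leave the cell that makes them. Granule cells along the long axis of the hippocampus differ in the transcripts they hold, and the dorsal and ventral poles have been linked to spatial and to emotional behaviour, respectively. The products of the 6 genes have little in common. Lct encodes lactase, an enzyme of the intestinal brush border whose transcript is also a known mark of dorsal granule cells. Sox4 encodes a transcription factor of the SoxC group that acts in immature neurons and glial precursors. Dhrs7 encodes a short-chain dehydrogenase of the endoplasmic reticulum. Robo3 encodes a receptor of the Roundabout family that steers axons across the midline, Il27ra encodes the specific subunit of the receptor for interleukin 27, and Nptx2 encodes a secreted pentraxin that gathers AMPA receptors at excitatory synapses.

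In the GRCm38 annotation (gencode vM21) each member was a protein-coding gene with a locus of its own. Lct (ENSMUSG00000026354.8) spanned chromosome 1 from 128284756 to 128328318, Dhrs7 (ENSMUSG00000021094.10) chromosome 12 from 72650353 to 72664909, Sox4 (ENSMUSG00000076431.4) chromosome 13 from 28948919 to 28953713, and Robo3 (ENSMUSG00000032128.15) chromosome 9 from 37415669 to 37433246, each on the minus strand. Il27ra (ENSMUSG00000005465.9) lay on the minus strand of chromosome 8 from 84030294 to 84042589, and Nptx2 (ENSMUSG00000059991.7) on the plus strand of chromosome 5 from 144545902 to 144557478. Sox4 was a single exon, and 2753 bases of its 4795 were covered on the opposite strand by the lincRNA Gm26735, whereas Il27ra shared only 2 bases with Palm3 on the opposite strand. The bulk kit keeps strand, but the strand setting of the counting is not given in the sources used here, so bulk counts of Sox4 could hold reads of Gm26735.

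The 250 bases before the RefSeq start (GRCm38.p6) are shown for the 4 members that had an entry (all but Nptx2 and Il27ra). These were also the 4 whose level fell past the thresholds in mutant DGC nuclei. They are set side by side as a description, and shared control of the 4 was not tested. Capitals mark every match, on either strand, to CTTTGA (core of the site of the TCF/LEF factors of Wnt signaling), to CAGATG and the related CAGCTG (E-boxes of bHLH factors such as those of granule cells), to TATAAA (the TATA box) and to the CCAAT box. In the annotation used for the positions above, the genes Sox4, Dhrs7 and Robo3 begin upstream of the RefSeq start, so the last part of those windows lies within them.
Lct, chr1:128328319-128328568, minus strand: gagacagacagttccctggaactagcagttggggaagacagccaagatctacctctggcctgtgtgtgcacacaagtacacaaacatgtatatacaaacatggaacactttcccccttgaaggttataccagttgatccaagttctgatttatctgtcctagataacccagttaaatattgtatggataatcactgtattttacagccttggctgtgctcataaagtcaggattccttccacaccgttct
Sox4, chr13:28953700-28953949, minus strand: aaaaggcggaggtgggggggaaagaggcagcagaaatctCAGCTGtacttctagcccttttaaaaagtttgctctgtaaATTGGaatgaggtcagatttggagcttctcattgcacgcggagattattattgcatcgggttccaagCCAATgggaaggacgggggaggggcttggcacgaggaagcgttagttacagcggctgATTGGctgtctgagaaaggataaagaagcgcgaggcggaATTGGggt
Dhrs7, chr12:72664829-72665078, minus strand: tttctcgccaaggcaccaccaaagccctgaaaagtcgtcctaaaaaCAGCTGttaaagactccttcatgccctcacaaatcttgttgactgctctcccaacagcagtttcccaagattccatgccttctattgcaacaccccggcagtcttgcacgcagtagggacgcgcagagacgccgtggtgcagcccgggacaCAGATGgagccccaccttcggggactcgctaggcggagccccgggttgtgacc
Robo3, chr9:37433176-37433425, minus strand: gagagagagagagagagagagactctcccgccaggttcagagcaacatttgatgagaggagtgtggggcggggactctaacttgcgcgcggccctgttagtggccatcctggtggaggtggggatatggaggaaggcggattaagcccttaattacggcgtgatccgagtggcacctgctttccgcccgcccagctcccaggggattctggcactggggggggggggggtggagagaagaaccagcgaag
The windows of Lct and Robo3 held none of the 5 motifs, and CTTTGA and TATAAA were in none of the 4. The Sox4 window held 4 matches to CCAAT, which begin 171, 104, 47 and 8 bases before the start, and a CAGCTG. The Dhrs7 window held a CAGCTG 204 bases before the start and a CAGATG 53 bases before it. Of all 32851 windows of the same length, 33.8% held CCAAT, 14.4% CAGATG, 13.0% CAGCTG, 13.8% CTTTGA and 12.4% TATAAA, so none of these letters was rare. None of the 5 motifs was in all 4 windows, and other motifs were not searched.

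The bulk libraries held between 56002381 and 79576196 expected counts. The snRNAseq libraries held between 5304 and 10460 nuclei and between 26307081 and 76486132 unique molecular identifiers (UMIs), each of which stands for 1 captured RNA molecule, and 87 of 29338 distinct barcodes occurred in more than 1 library. DGC nuclei, deposited as GC, were 90 and 463 in mutant replicates 1 and 2 against 2336 and 2007 in control replicates 1 and 2, which is 1.70%, 4.43%, 36.1% and 27.9% of the nuclei. They held the defining DGC markers Prox1, C1ql2, Dsp, Plk5 and Calb1 at a summed level of between 497 and 544 CPM (the count of a gene relative to the total of the library or sum) in every library, and oligodendrocytes came next at between 194 and 265 CPM. In DGC nuclei most of the sum was Prox1 and Calb1. By gene, C1ql2, Dsp and Plk5 were lower in both mutants than in both controls, and Prox1 was higher in both. Wls, the targeted gene, was at 3.67 and 6.86 CPM in mutant and 13.2 and 13.0 CPM in control bulk libraries, and at 6.96 and 11.7 CPM against 20.7 and 27.4 CPM in all nuclei. In DGC nuclei Wls was not lower in mutants. It was at 4.78 and 5.64 CPM there, from 2 and 19 UMIs, and at 3.33 and 4.45 CPM in controls, from 38 and 72. The adjusted p was 0.622 in the edgeR test described below. The labels give male mice, but bulk replicate 2 of each genotype had Xist at 230 and 518 CPM and Ddx3y at 0.352 and 0.343 CPM, and bulk replicate 1 of each had the reverse. Ttr, which marks choroid plexus, was at 635 and 4963 CPM in the mutant bulk libraries and at 84.8 and 31.8 CPM in the controls, and its part in any result below was not tested. Per the methods both genotypes were progeny of a single kind of cross, but which libraries share a litter or batch is not given. With 2 samples per group an exact permutation test of a single value cannot go below p = 0.33, so the p-values below come from fits that share the spread among all genes.

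In bulk RNAseq the 6 genes did not move as a group. Il27ra, Lct and Robo3 were lower in both mutants than in both controls, Nptx2 was higher in both mutants, and Sox4 and Dhrs7 overlapped between genotypes. By the quasi-likelihood test of edgeR, with p-values adjusted over all genes by Benjamini-Hochberg (FDR), among 20687 genes, 0 of 6 were called at the study's bulk threshold of FC above 3 and FDR below 0.05, where 0.198% of all genes tested were called lower. At FDR below 0.05 with any fold change 1 of 6 was lower, where 1.01% of all genes were, and at an unadjusted p below 0.05 and FC above 3, 139 genes were lower and 171 higher. DESeq2 called 1 of 6 at FC above 3, which was Il27ra, and without the fold threshold it gave adjusted p = 2.94e-08 for Robo3, 1.58e-06 for Lct and 0.00518 for Il27ra, all lower, and 0.00151 for Nptx2, higher. The edgeR fit with no filter on low counts had the same 4 below 0.05.

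Robo3, the axon guidance receptor, was at 22.5 and 24.3 CPM in mutants and at 41.8 and 37.1 CPM in controls. The genotypes did not overlap, and each library of a genotype was close to its partner. The log2 fold change of mutant over control was -0.75 ± 0.09 (SE, n = 2 per genotype), with adjusted p = 0.0408 by edgeR. Robo3 was lower in the mutant of each replicate number, which in bulk also divides the libraries by Xist and Ddx3y, but with that number as a term in the edgeR fit the adjusted p was 0.0709, and it was 0.246 and 0.253 without control replicate 1 or 2. Lct was at 24.8 and 30.9 CPM in mutants and at 48.3 and 45.6 CPM in controls. Its log2 fold change was as large, at -0.75 ± 0.12 (SE), but with adjusted p = 0.0638 in edgeR it missed the threshold. Il27ra had the largest bulk difference of the 6 and the lowest level. It stood at 0.272 and 0.226 CPM in mutants, from 16 and 18 expected counts, and at 1.28 and 1.04 CPM in controls, from 72 and 70. The log2 fold change was -2.22 ± 0.32 (SE), or 4.64-fold higher in controls, with adjusted p = 0.0574 in edgeR.

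Nptx2, the synaptic pentraxin, had the opposite order. It was at 35.7 and 40.4 CPM in mutants and at 26.8 and 28.1 CPM in controls, a log2 fold change of 0.47 ± 0.09 (SE) with adjusted p = 0.0873 in edgeR. Sox4 was at 24.1 and 28.2 CPM in mutants and at 23.1 and 24.8 CPM in controls, with a log2 fold change of 0.13 ± 0.11 (SE) and adjusted p = 0.580 in edgeR. Dhrs7 was at 12.2 and 17.8 CPM in mutants and at 15.2 and 15.0 CPM in controls, so that the mutants lay on either side of the controls. Its log2 fold change was -0.01 ± 0.19 (SE), with adjusted p = 0.991 in edgeR. Both mutants lay below both controls for 3 of 6 members, where 25.4% of all genes tested did so. Against transcript length, in TPM, the control libraries held Dhrs7 at 25.7 and 25.6, Nptx2 at 22.8 and 24.0, Robo3 at 22.7 and 20.6, Lct at 16.8 and 15.8, Sox4 at 10.3 and 11.1 and Il27ra at 1.03 and 0.850, so the order of level in tissue was not the order of change. In whole tissue, fewer cells of a type and less RNA per cell cannot be told apart.

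For comparison, Prox1, C1ql2, C1ql3, Dsp, Plk5, Calb1, Lgr6 and Fam163b were taken as pan-DGC genes. An even level of them along the axis was not tested. Among DGC nuclei both mutants lay below both controls for 5 of the 8 and above both for 1. The largest falls there, as log2 fold changes, were -1.57 for C1ql2 and -1.18 for Plk5. In bulk 7 of 8 were called lower at FC above 3 and FDR below 0.05, where 0.198% of all genes tested were. The list was chosen with earlier results of these data known, so that count is not independent evidence of its direction. Its median log2 fold change was -2.61, against -0.38 for the 6 dorsal pattern genes and 0.01 over all genes tested. Only Il27ra had a bulk change near the median of that list.

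**Figure D1:**
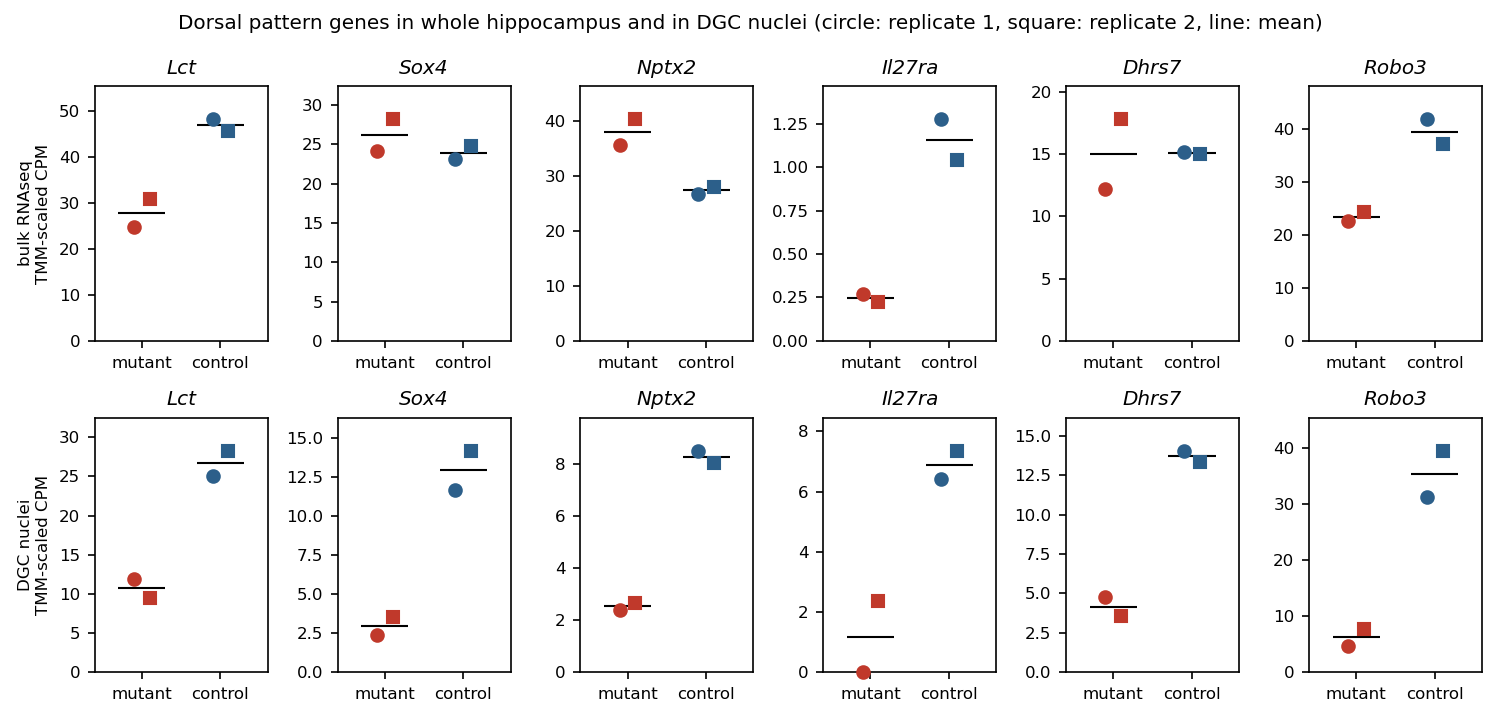
Level of each gene in every library, in CPM after TMM scaling, with bulk RNAseq above and DGC nuclei below, mutants in red and controls in blue, and a line at the mean of 2. In DGC nuclei both mutants lie below both controls in all 6 panels, whereas in bulk RNAseq Nptx2 is higher in both mutants and Sox4 and Dhrs7 overlap.

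Within DGC nuclei all 6 genes were lower in both mutants than in both controls, where 26.1% of all genes tested had that order. In sums of the UMIs of a sample over its DGC nuclei, Robo3, Sox4, Dhrs7 and Lct fell past the thresholds used within cell types (FC above 2 and FDR below 0.05), whereas Nptx2 and Il27ra did not pass. This makes 4 of 6 called lower in edgeR at Benjamini-Hochberg adjusted p, where 0.64% of the 15003 genes tested were. Since the genes were shown for their place on the map of these nuclei, that count is not independent evidence of its direction. The median log2 fold change of the 6 was -1.80, against -0.01 over all genes tested. The call rests on both mutant mice and on the tool. It was not kept without mutant replicate 1 or without mutant replicate 2, and calls over all genes fell there too. A single mutant library is left in each of these settings. The log2 fold changes were then -2.21 and -2.92 for Robo3 and -1.50 and -1.19 for Lct. DESeq2 called Robo3 only and gave no adjusted p for Nptx2 and Il27ra. Over all genes it called 159, lower and higher together, against 220 in edgeR.

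Robo3 had 2 and 26 UMIs in DGC nuclei of mutant replicates 1 and 2 and 357 and 639 in those of control replicates 1 and 2, or 4.78, 7.72, 31.3 and 39.5 CPM. Both mutants were far below both controls. Its log2 fold change was -2.28 ± 0.30 (SE, n = 2 per genotype), or 4.87-fold higher in controls, with adjusted p = 0.00877 in edgeR. Sox4 had 1 and 12 UMIs in mutants and 133 and 229 in controls, or 2.39, 3.57, 11.7 and 14.2 CPM, a log2 fold change of -1.92 ± 0.39 (SE) with adjusted p = 0.0446 in edgeR. The genotypes were well apart, though mutant replicate 1 rests on a single molecule. Dhrs7 had 2 and 12 UMIs in mutants and 160 and 216 in controls, or 4.78, 3.57, 14.0 and 13.4 CPM, a log2 fold change of -1.87 ± 0.37 (SE) with adjusted p = 0.0399 in edgeR. Lct had 5 and 32 UMIs in mutants and 286 and 457 in controls, or 11.96, 9.51, 25.1 and 28.3 CPM, a log2 fold change of -1.43 ± 0.27 (SE) with adjusted p = 0.0364 in edgeR. Among the called genes Lct kept most of its control level and Robo3 the least.

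Nptx2 and Il27ra were as low in mutants but rest on fewer molecules. Nptx2 had 1 and 9 UMIs in mutants and 97 and 130 in controls, or 2.39, 2.67, 8.51 and 8.04 CPM, with a log2 fold change of -1.64 ± 0.43 (SE) and adjusted p = 0.0976 in edgeR. Il27ra had no UMI in the 90 DGC nuclei of mutant replicate 1, and the upper limit that a count of 0 allows there (3 UMIs of the total) is 7.24 CPM, close to the control values. It had 8 UMIs in mutant replicate 2 and 73 and 119 in controls, or 2.38, 6.41 and 7.36 CPM, with a log2 fold change of -1.74 ± 0.53 (SE) and adjusted p = 0.149 in edgeR. With no filter on low counts both were called, at adjusted p = 0.0306 for Nptx2 and 0.0368 for Il27ra in edgeR.

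Other transcripts of the same nuclei did not all move down. The 6 ventral transcripts of the study (Ano2, Atp2b4, Pde9a, Stk32b, Timp2 and Trhr) were all called higher in mutant DGC nuclei, where 0.827% of genes tested were, with a median log2 fold change of 2.07. That list too was shown by the study on these nuclei and is not independent evidence of its direction. Trhr, the receptor of thyrotropin-releasing hormone, was at 59.8 and 57.9 CPM in mutants and 6.67 and 7.48 CPM in controls (log2 fold change 3.04 ± 0.22 SE, adjusted p = 0.00164 in edgeR). Of the 8 pan-DGC genes 1 was called lower, where 0.64% of genes tested were. It was C1ql2, which encodes an organiser of mossy fibre synapses, with a log2 fold change of -1.57 ± 0.26 (SE) and adjusted p = 0.0242 in edgeR. Both mutants lay below both controls for 5 of the 8 and above both for 1, where 26.1% of all genes tested lay below. The median of the list was -0.40.

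Ligands, co-receptors and close paralogs of the members were followed as a list of 18 genes. In DGC nuclei 16 passed the filter on low counts, of which 1 was called lower and 0 higher, with a median log2 fold change of -0.07. Of all genes tested there, 0.64% were called lower and 0.827% higher. The one called was Stat3, a transcription factor downstream of Il27ra and many other receptors, at 16.7 and 14.6 CPM in mutants and 33.7 and 32.1 CPM in controls (log2 fold change -1.14 ± 0.24 SE, adjusted p = 0.0499 in edgeR). Sox11, the other main SoxC factor of young neurons, was at 21.5 and 19.6 CPM in mutants and 40.5 and 39.7 CPM in controls, with adjusted p = 0.0568 in edgeR. Nptx1, the paralog of Nptx2, was at 69.3 and 98.9 CPM in mutants and 163 and 158 CPM in controls, with adjusted p = 0.0658 in edgeR. Robo1 and Robo2 overlapped between genotypes, with log2 fold changes of -0.13 ± 0.18 and -0.13 ± 0.19 (SE), beside the -2.28 of Robo3. In bulk RNAseq 16 of the 18 passed the filter and 0 were called in either direction, where 0.198% of all genes tested were called lower.

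**Figure D2:**
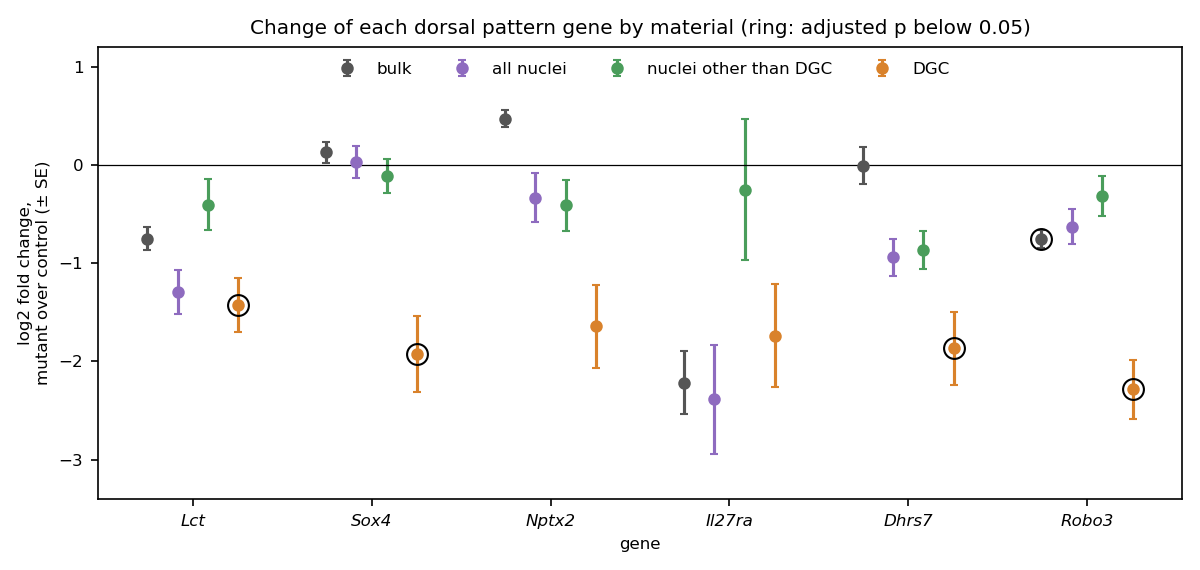
Log2 fold change of mutant over control with its SE for each gene in bulk RNAseq, in all nuclei summed, in all nuclei other than DGCs summed and in DGC nuclei, n = 2 mice per genotype, with a ring where adjusted p is below 0.05. DGC nuclei give the lowest value for each gene but Il27ra, for which bulk RNAseq gives -2.22 and all nuclei -2.39.

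Markers of other cells were also counted in the DGC sums, with 3 markers in each list. CA3 markers had the highest sum, at 444 and 403 CPM in mutants and 414 and 333 CPM in controls, most of it Cpne4. Galnt3 was higher in both mutants than in both controls, and Bok was lower in both. Inhibitory markers stood at 45.9 and 35.3 CPM in mutants and 47.7 and 46.4 CPM in controls. Oligodendrocyte precursor markers stood at 2.41 and 4.67 CPM against 3.52 and 3.69 CPM. Microglia markers stood at 91.8 and 100.1 CPM in mutants and 62.2 and 74.7 CPM in controls, with 2 of 3 markers above both controls in both mutants. Oligodendrocyte markers stood at 155 and 167 CPM in mutants and 152 and 141 CPM in controls, and choroid plexus markers at 9.66 and 55.5 CPM in mutants and 38.9 and 13.8 CPM in controls. CA1 markers were at 14.5 and 17.8 CPM in mutants and 22.3 and 22.4 CPM in controls, and mossy cell markers at 0 and 2.63 CPM against 1.58 and 1.72 CPM. The astrocyte markers summed to 79.7 and 74.7 CPM in mutants and 63.5 and 66.7 CPM in controls, nearly all of it Slc1a3, with Aqp4 and Gja1 at 0 in mutant replicate 1. The part of these cells in the results was not tested. Without the 5% of DGC nuclei with most UMIs in each sample, where doublets would lie, 4 of 6 members were again called.

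When all nuclei of a sample were summed, as the nearest match to whole tissue, 0 of 6 members were called at FC above 3, where 0% of 20575 genes were. At an unadjusted p below 0.05 and FC above 3, 81 genes were lower and 101 higher, and DESeq2 called 65 genes. Il27ra was at 0.154 and 0.609 CPM in mutants and 2.10 and 2.38 CPM in controls (log2 fold change -2.39 ± 0.55 SE, adjusted p = 0.203 in edgeR). Lct was at 4.20 and 5.52 CPM in mutants and 12.5 and 11.6 CPM in controls (-1.30 ± 0.22 SE, adjusted p = 0.177 in edgeR). Dhrs7 was at 7.01 and 6.54 CPM in mutants and 13.7 and 12.3 CPM in controls (-0.94 ± 0.19 SE, adjusted p = 0.191 in edgeR), a separation that bulk RNAseq did not show. Sox4 and Nptx2 overlapped between genotypes, at 19.6, 23.4, 19.9 and 22.3 CPM for Sox4 and 9.63, 7.19, 12.1 and 9.06 CPM for Nptx2, in the order of mutant and control replicates.

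The share of a gene's UMIs that lay in DGC nuclei differed widely among the 6. In control replicates 1 and 2 it was 92.4% and 79.9% for Il27ra, 61.0% and 63.1% for Lct, and 37.4% and 44.1% for Robo3. It was 31.1% and 28.1% for Dhrs7, 21.3% and 22.9% for Nptx2, and 17.8% and 16.4% for Sox4. The 3 genes with the largest shares were the 3 whose bulk level was lower in both mutants, and the 3 with the smallest shares were those that were not. In mutant replicates 1 and 2 the shares were 0% and 16.7% for Il27ra, 4.59% and 7.36% for Lct, 0.440% and 2.36% for Robo3, 1.10% and 2.33% for Dhrs7, 0.400% and 1.59% for Nptx2 and 0.197% and 0.649% for Sox4. Most mutant UMIs of every member thus lay outside DGC nuclei.

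Outside DGCs the genes were followed in the 17 other deposited types that had at least 10 nuclei in every sample. Of 102 possible tests 36 passed the filter on low counts, and in 0 of them was a member called in either direction at FC above 2 and FDR below 0.05 by edgeR's quasi-likelihood test, where 0.0754% of all tests in these types were. DESeq2 also called 0, and 6 of the 36 had an unadjusted p below 0.05. Dhrs7 was lower in mutants in each of the 8 types in which it passed, by log2 fold changes of between -1.43 and -0.18, with 4 at an unadjusted p below 0.05 and a lowest adjusted p of 0.268, in astrocytes. Sox4 was lower in 6 and higher in 8 of 14 types, Nptx2 lower in 5 and higher in 2 of 7, Robo3 lower in 2 and higher in 2 of 4, and Lct lower in 2 and higher in 1 of 3. Il27ra passed the filter in no type but DGCs. Summed over all nuclei other than DGCs, 0 of 6 were called lower in edgeR, where 0% of 19896 genes were, 1 of 6 (Dhrs7, log2 fold change -0.87 ± 0.19 SE) had an unadjusted p below 0.05, and the median log2 fold change was -0.36. In the same sums the pan-DGC list had a median of -1.04, and free RNA of DGCs in other droplets was not measured apart.

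Whether a member changed more in DGCs than elsewhere was tested as a difference of changes. Only Sox4 and Dhrs7 had a count in every type and genotype, as the contrast with the mean of 17 types requires. Sox4 fell by 2.05 ± 0.43 (SE) more on the log2 scale in DGCs than in the mean of the other types (adjusted p = 0.00308 in edgeR), and for Dhrs7 the difference was -1.38 ± 0.47 (SE) with adjusted p = 0.157, so 1 of 2 was called, where 0.31% of 10005 genes were called lower. In a contrast added after the data were seen, with all other nuclei pooled into 1 sum per sample, 3 of 6 were called lower, where 0.38% of 19214 genes were. Robo3 differed by -1.91 ± 0.28 (SE, adjusted p = 2.5e-09), Sox4 by -1.96 ± 0.37 (SE, adjusted p = 1.91e-05) and Lct by -1.23 ± 0.30 (SE, adjusted p = 0.00295), all in edgeR. Nptx2 (-1.16, adjusted p = 0.235), Il27ra (-1.85, adjusted p = 0.176) and Dhrs7 (-1.04, adjusted p = 0.212) did not pass. None of these calls was made without mutant replicate 2, and that of Lct was also lost without control replicate 2 (-1.02, adjusted p = 0.362 in edgeR). Without mutant replicate 2 the pooled values were -0.59 for Lct, -2.19 for Sox4 and -2.78 for Robo3. The contrast with the mean of the types could not be fitted for Sox4 or Dhrs7 in that setting.

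In control samples Lct and Il27ra were at a higher level in DGCs than in any of the other 17 types with enough nuclei, Robo3 was as high in 2 other types, and Nptx2, Dhrs7 and Sox4 were highest elsewhere. These levels are CPM of the summed UMIs of a type, in control replicates 1 and 2, and no test was made of them. Lct was at 25.1 and 28.1 CPM in DGCs, followed by CA1 pyramidal cells at 11.5 and 10.7 CPM and CA3 pyramidal cells at 5.50 and 4.33 CPM, with no overlap between DGCs, CA1 and CA3. The other 15 types lay between 0 and 5.55 CPM, and of these excitatory neurons 8 and 13, inhibtory neurons 5 and 18 and mossy cells overlapped with CA3. Il27ra was at 6.42 and 7.32 CPM in DGCs, above every other type. It reached 5.99 CPM in 1 control sample of the type deposited as inhibtory neurons 14 and 1.91 CPM in 1 of excitatory neurons 10, with 0 in the other sample of each, and it had no UMI in either control in 8 of the remaining 15 types. Some of these sums were small. Excitatory neurons 19 held 74590 and 109387 UMIs in controls, too few for a count of 0 to exclude the level of DGCs. In mutants that type ranked first for Il27ra, at 0 and 14.8 CPM from 3 UMIs, and DGCs were at rank 3.

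Robo3 was shared by several kinds of excitatory neuron. It was at 31.4 and 39.3 CPM in DGCs, 46.8 and 22.9 CPM in excitatory neurons 7, 34.5 and 27.8 CPM in CA1 and 24.4 and 27.2 CPM in CA3. The first 3 overlapped in their spread and cannot be ordered, and after CA3 the next type was at 8.53 and 2.00 CPM. In mutants CA3 and excitatory neurons 7 kept Robo3 at 31.3 and 25.4 CPM and at 54.8 and 25.0 CPM, while DGCs had 4.83 and 7.59 CPM and moved to rank 4. CA1 had 21.5 and 22.8 CPM in mutants, below both of its control values. Its log2 fold change was -0.51 ± 0.19 (SE), with an unadjusted p = 0.0278 and adjusted p = 0.462 in edgeR.

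Nptx2, Dhrs7 and Sox4 were highest outside DGCs. Nptx2 was at 31.9 and 25.9 CPM in CA2 pyramidal cells and 21.2 and 16.2 CPM in CA1, with DGCs at rank 5 with 8.53 and 7.99 CPM, which overlapped with the types on either side. Dhrs7 was at 46.9 and 43.9 CPM in inhibtory neurons 14, a type whose inhibitory markers Gad1, Gad2 and Slc32a1 summed to between 32.2 and 89.8 CPM, against between 554 and 1704 CPM in the other inhibitory types tested, so that its deposited name goes against its markers. Oligodendrocytes came next for Dhrs7 at 38.1 and 26.7 CPM, and overlapped with excitatory neurons 19 and with astrocytes, which were at 48.3 and 14.1 CPM, and DGCs were at rank 7 with 14.1 and 13.3 CPM. Sox4 was at 189 and 254 CPM in oligodendrocyte precursors (OPC), where its protein is known to act, and at 66.1 and 99.9 CPM in microglia. DGCs, with 11.7 and 14.1 CPM, were at rank 15 of 18 for Sox4 in controls and at rank 18 in mutants.

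**Figure D3:**
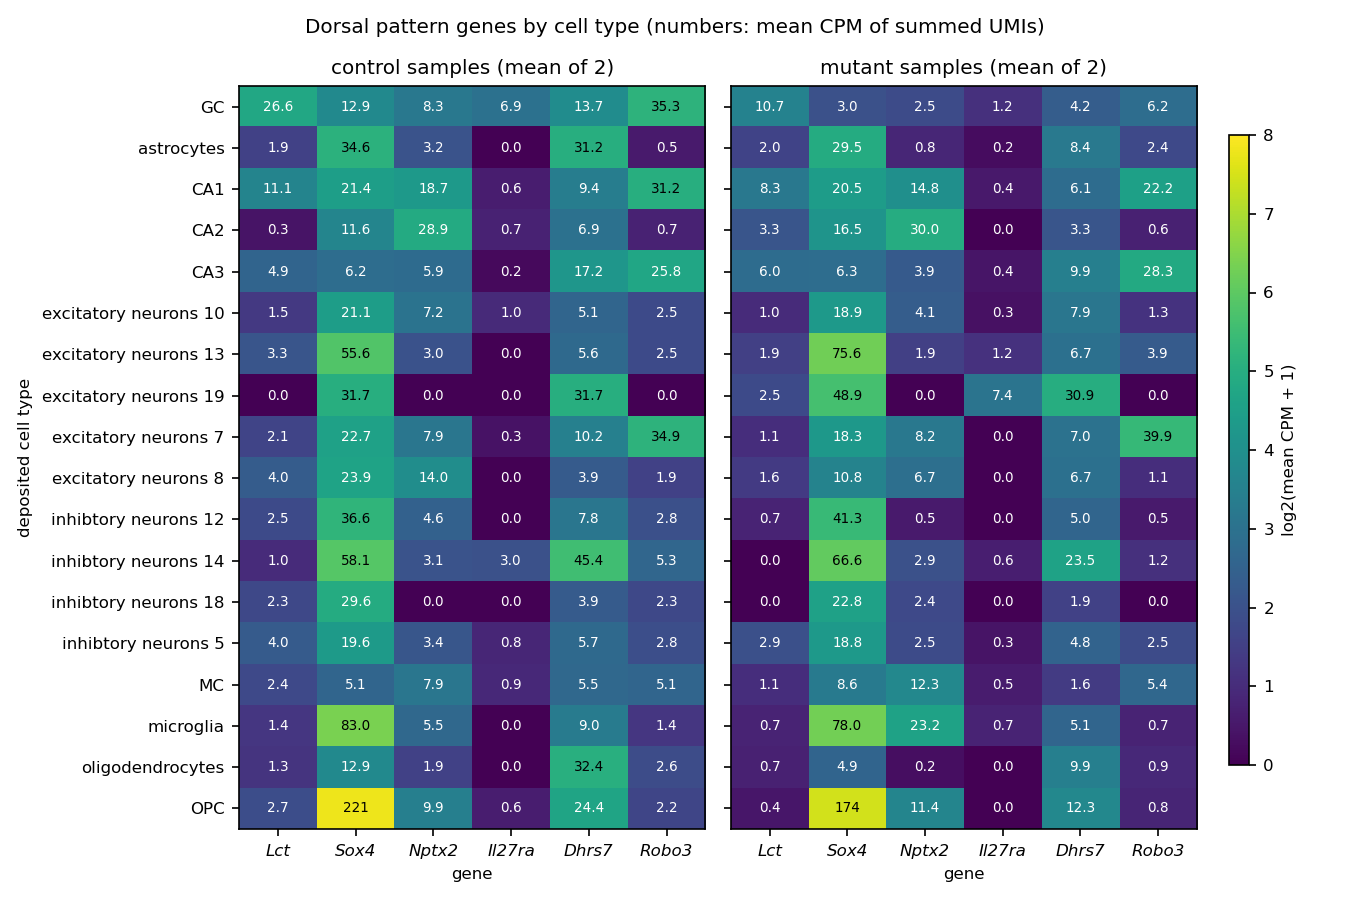
Mean CPM of each gene in the 18 deposited cell types for which each sample held 10 nuclei or more, for controls at left and mutants at right, with the colour on a log2(CPM + 1) scale and names as deposited (GC for DGCs, MC for mossy cells). Lct and Il27ra have their highest control level in GC and Sox4 has it in OPC, while the level of Robo3 in GC overlaps with CA1 and excitatory neurons 7.

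A further 3 types had too few nuclei in some sample for a test. In choroid plexus nuclei (CP), which were found in 1 control and 1 mutant sample, Sox4 was at 50.3 and 48.0 CPM, respectively, from 3 and 46 UMIs, and Lct, Nptx2 and Il27ra had no UMI. In the type deposited as inhibtory neurons 15 Robo3 had 3 UMIs over the control samples and 17 over the mutants, where it was at 11.5 and 9.32 CPM, and Il27ra had none. In EC, the third, no member had more than 6 UMIs over the samples of a genotype.

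By nucleus the genes were sparse. To compare samples of different depth each nucleus was thinned to 1500 UMIs, which left out no DGC nucleus. At least 1 UMI of any of the 6 genes was then found in 7.78% of DGC nuclei of mutant replicate 1 (exact binomial 95% interval 3.18% to 15.4%), in 5.62% of mutant replicate 2 (3.70% to 8.12%), in 14.5% of control replicate 1 (13.1% to 16.0%) and in 15.4% of control replicate 2 (13.8% to 17.1%). The controls lay close together, and mutant replicate 1 overlapped with them in its interval, as its 90 nuclei allow no finer value. Without thinning the shares were 12.2% and 17.1% in mutants and 36.4% and 50.5% in controls. Intervals and limits here cover counting error only.

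Oligodendrocytes, in which Lct, Robo3, Nptx2 and Il27ra were low, gave the background of free RNA for these 4 genes, at a median of between 1727 and 2339 UMIs against between 4241.5 and 7688 in DGCs. Thinned to the same 1500 UMIs, which left out none of them, they held Lct in 0.431% and 0% of nuclei, Robo3 in 0.862% and 0.0972%, Nptx2 in 0.431% and 0.292%, and Il27ra in 0% of controls. The thinned share of control DGCs was above these, at 3.55% and 4.29% for Lct, 4.49% and 5.63% for Robo3, 1.33% and 1.10% for Nptx2 and 1.16% and 1.146% for Il27ra. Sox4 was in 1.71% and 2.44% of control DGC nuclei and in 1.72% and 1.75% of control oligodendrocytes, and Dhrs7 in 2.78% and 1.94% against 6.47% and 4.08%. Oligodendrocytes themselves had a higher level of Dhrs7 than DGCs (38.1 and 26.7 CPM against 14.1 and 13.3 CPM), so for Sox4 and Dhrs7 these shares are no measure of free RNA and none was had. In mutant replicate 2, Robo3 and Lct were each in 1.73% of DGC nuclei (0.749% to 3.38%), below both controls. In mutant replicate 1, Lct was in 4.44% (1.22% to 11.0%) and Robo3 in 2.22% (0.270% to 7.80%), and neither differed from the controls beyond counting error.

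**Figure D4:**
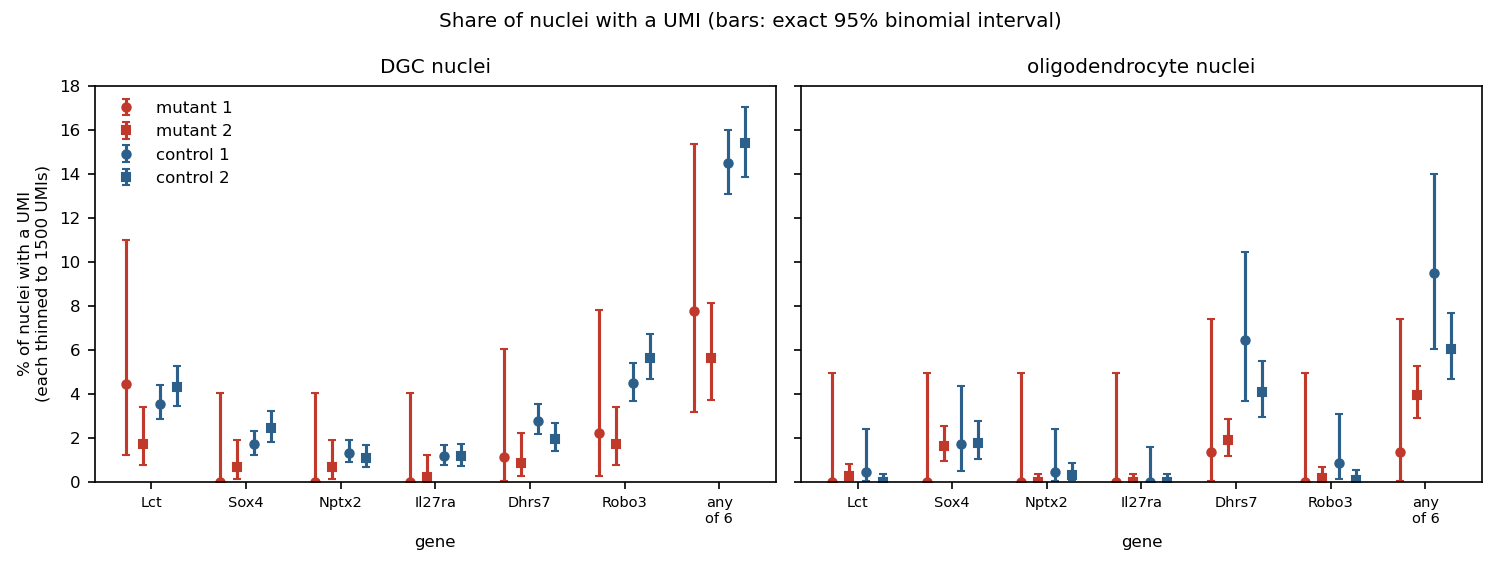
Percentage of nuclei with at least 1 UMI of each gene, and of any of the 6, after thinning to 1500 UMIs, in DGC nuclei at left and oligodendrocytes at right, with exact 95% binomial intervals for each of the 4 samples. For any of the 6, the DGC shares are 7.78% and 5.62% in mutants and 14.5% and 15.4% in controls.

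In nuclei that held a UMI of a member, its level overlapped between genotypes. Lct was at 1.82 and 1.56 UMIs per 10000 in the 5 and 28 positive nuclei of mutant replicates 1 and 2 and at 2.31 and 1.55 in the 258 and 361 of the controls. Robo3 was at 3.06 and 1.51 in mutants, from 2 and 24 nuclei, and at 2.46 and 1.87 in controls, from 308 and 440. For 0 of 6 members were both mutants below both controls. This measure hardly leaves the value of a single molecule: after thinning to 1500 UMIs a positive nucleus held on average between 1.00 and 1.18 UMIs of each gene in every sample that had such nuclei, so no change or constancy of level can be read from it.

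The dorsal pattern genes were then followed in DGC nuclei with and without a UMI of the 6 ventral transcripts. In control replicates 1 and 2, 31.2% and 39.7% of DGC nuclei held a ventral transcript, against 57.8% and 82.5% in mutants. Thinned to 1500 UMIs the shares were 10.9% and 12.2% in controls and 32.2% and 43.2% in mutants, beside 9.91% and 14.5% of control oligodendrocytes, a type that may hold some of these transcripts itself, so no background of free RNA was had for the ventral list. Both lists were shown by the study for their places on the map of these nuclei, so what follows describes their order and is no independent evidence of it. All 6 genes were at a higher level in control nuclei without a ventral transcript than in those with one, in both controls. For the 6 together it was 107 CPM (exact Poisson 95% interval 99.6 to 115) against 78.6 CPM (69.99 to 87.9) in control replicate 1 and 125 CPM (117 to 132) against 91.4 CPM (84.5 to 98.7) in control replicate 2. The intervals of the 6 together were apart in both samples, though nuclei with a ventral transcript were deeper, with medians of 4956.5 and 8238 UMIs against 4486.5 and 7289. By gene, the intervals were apart in both controls for Robo3 only, and for Lct in control replicate 2 only. Those of Sox4, Nptx2, Il27ra and Dhrs7 overlapped in both controls.

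In mutants the same order held for the 6 together, at 52.7 CPM (22.8 to 104) without and 11.4 CPM (2.36 to 33.4) with a ventral transcript in replicate 1, from 8 and 3 UMIs, and at 56.8 CPM (38.0 to 81.6) against 24.0 CPM (18.7 to 30.3) in replicate 2, from 29 and 70 UMIs. These values rest on few molecules. In replicate 2 the order was the reverse for Sox4, Nptx2 and Il27ra, at 3.77, 2.74 and 2.40 CPM with a ventral transcript and 1.96 CPM each without. In the 81 nuclei of mutant replicate 2 without a ventral transcript Lct was at 25.5 CPM (13.6 to 43.5) and Robo3 at 21.5 CPM (10.8 to 38.5), and the interval of Lct took in both control values of the same class, 27.0 and 32.2 CPM. Sox4 and Nptx2 were at 1.96 CPM each in those nuclei (0.0496 to 10.9), from 1 UMI, below the control values of 12.1 and 16.0 CPM for Sox4, while the interval took in the 9.06 and 9.27 CPM of Nptx2. Dhrs7 was at 3.92 CPM (0.474 to 14.2), from 2 UMIs. The 38 such nuclei of mutant replicate 1 did not have the same order, with Lct at 19.8 CPM (4.08 to 57.8), Dhrs7 at 13.2 CPM (1.597 to 47.6) and Robo3 at 6.59 CPM (0.167 to 36.7), from 3, 2 and 1 UMIs. Nuclei with a ventral transcript were a larger share of DGC nuclei in mutants, and whether they are of the same kind in both genotypes was not tested. In nuclei with a ventral transcript Robo3 was at 3.81 and 5.15 CPM in mutants against 20.7 and 33.4 CPM in controls, and Lct at 7.62 and 6.52 CPM against 21.5 and 22.8 CPM. The other 4 genes had no UMI in the 52 such nuclei of mutant replicate 1, where the interval reaches 14.1 CPM, above their control values. In mutant replicate 2 they lay between 2.40 and 3.77 CPM.

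**Figure D5:**
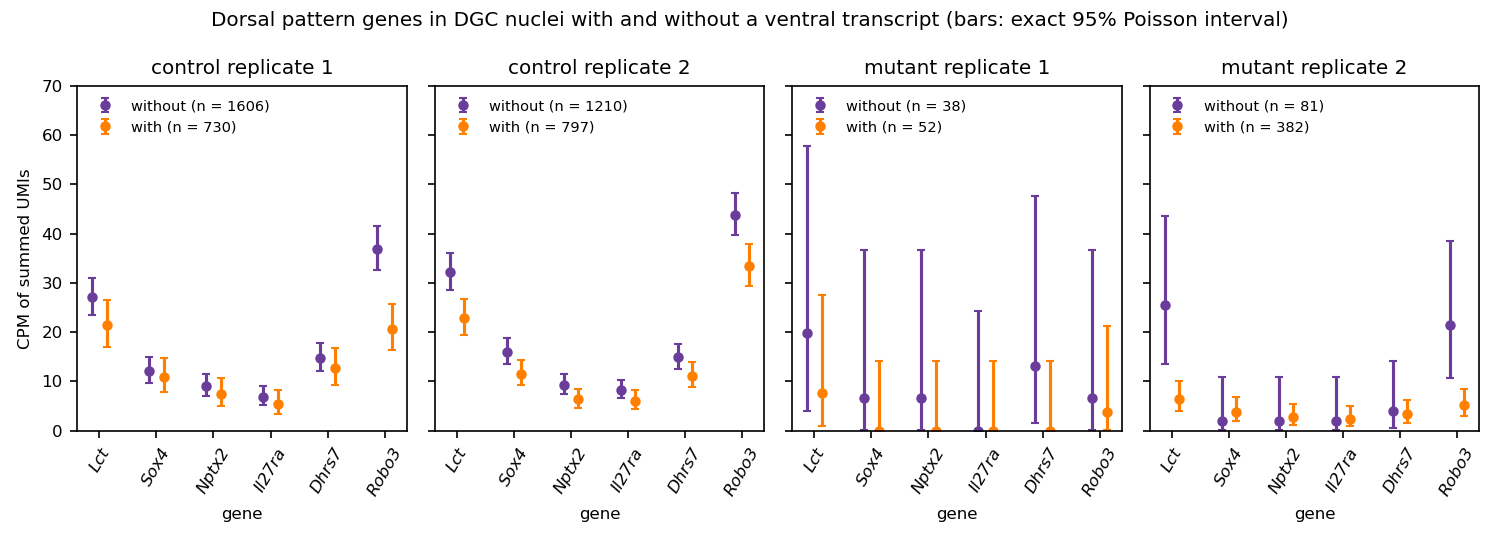
Level of each gene in CPM in the DGC nuclei of each sample without (purple) and with (orange) a UMI of a ventral transcript, with exact 95% Poisson intervals and the number of nuclei. In both controls every gene is higher without a ventral transcript, and in mutant replicate 2 Lct and Robo3 are at 25.5 and 21.5 CPM without one and at 6.52 and 5.15 CPM with one.

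Among the DGC nuclei of a control sample, the 6 genes were not held by the same nuclei to any marked degree. Within 5 strata of UMIs, the odds ratio of finding a pair of them in 1 nucleus had a median of 0.902 over the 15 pairs in control replicate 1, of which 6 were above 1, and of 1.24 in control replicate 2, of which 11 were. The pair of Nptx2 and Robo3 had the highest value in both, at 2.202 from 20 nuclei and 2.73 from 43. Pairs of a dorsal and a ventral gene had medians of 0.962 and 0.730 over 36 pairs, and pairs of ventral genes 1.44 and 2.29 over 15. In counts as sparse as these such ratios are given as a description only.

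Across the 36 sums of a control sample and type, the genes whose pattern was most like that of each member were found by Pearson's r of log2(CPM + 1), among 13372 genes that reached 20 CPM in some sum (13373 for Il27ra, which itself stayed below). These sums share their libraries and differ in depth, so r is a description with no p. Scn3b, a sodium channel subunit, was nearest to Lct (r = 0.647) and the third nearest to Robo3 (0.710), after Doc2b (0.738) and Slc30a3 (0.717). Lct was followed by Slc26a10 (0.640) and F2rl2 (0.617). Nptx2 was nearest to Lingo3 (0.797), Adgrb2 (0.772) and Cabp7 (0.713), and Il27ra to Slc29a4 (0.691), C1ql3 (0.649) and Gm44724 (0.639). Sox4 was nearest to Cask (0.843), Ampd3 (0.829) and Usp24 (0.804), and Dhrs7 to Bag5 (0.809), Sfr1 (0.803) and H1f0 (0.803). No member was among the 3 nearest of another, and the highest r between members was 0.583, for Lct and Robo3, while Sox4 and Robo3 were at -0.336.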

How the data were processed

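The authors aligned bulk reads with Bowtie2 2.2.9 to mm10 and deposited, per gene, the expected count and the TPM that RSEM 1.3.0 gives, and a matrix of counts divided by their size factors (a signal per gene). For nuclei they deposited UMI counts from Cell Ranger 3.1.0 with a cell type per nucleus, which was used as given, since how doublets were treated before deposit is not stated in the sources used here. The deposited FPKM column and the size factor of each nucleus, a ratio of its UMI total to the mean that the authors computed, were not used.

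Expected counts were rounded, nuclei of a type were added up within each sample, and both were fitted with edgeR 4.0.16 (filterByExpr, TMM, quasi-likelihood test, Benjamini-Hochberg over all genes tested) in R 4.3.3. A call required FDR below 0.05 and FC above 3 in bulk and in all nuclei, or above 2 within types and in differences of changes. CPM beside a test is TMM-scaled, and otherwise relative to the raw total. The study's own bulk test, EBSeq, was not run. Thinning (seed 1), shares and their intervals were computed in Python with scipy 1.17.1 and numpy 2.4.6. Levels in classes of nuclei and types with fewer than 10 nuclei in a sample had no test.

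Alternatives were RLE scaling, no filter, DESeq2 1.42.0, limma 3.58.1 on log2(value + 1) of the authors' matrix, the replicate number as a block, other thresholds and each sample left out. The fits were tested on simulated data. Genes named were the 6 members, the ventral, pan-DGC and partner lists, the markers and, for each member, the 3 genes with the highest r. The members and lists were chosen with earlier results of these data known. Promoter windows were taken as the 250 bases before the start.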

Additional observations from a re-analysis of the deposited data

Results flagged for a closer look

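The change with genotype differed between DGCs and other nuclei for 3 of the 6 genes, by a test of the difference itself in edgeR, where 0.38% of 19214 genes were called lower in the pooled contrast and 0.31% of 10005 in that with the mean of the types. The genes were shown by the study for their pattern among these DGC nuclei, so the direction is not independent evidence. For Sox4 the log2 fold change in DGCs was lower by 2.05 than the mean of the other types, and the difference was -1.96 when all other nuclei were pooled. In the pooled contrast, which was added after the data were seen, the difference was -1.23 for Lct and -1.91 for Robo3. The 3 genes had levels outside DGCs that differed in kind: Sox4 was highest in OPC, Robo3 was shared with CA1, CA3 and excitatory neurons 7, and Lct was lower in every other type in controls. In mutants these values rest on 90 and 463 DGC nuclei, and none of the pooled calls was made without mutant replicate 2.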

How the results depend on the processing

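In bulk RNAseq the count of members called lower went from 0 to 1 (Il27ra) with no filter on low counts and with DESeq2, and lay between 0 and 1 with a sample left out, where the call came without mutant replicate 1. All genes called there went from 45 to 313 with no filter, 139 with DESeq2, 26 with the replicate block and 82 at FC above 2, and between 0 and 395 with a sample left out. In DGC nuclei the members called lower went from 4 to 1 with DESeq2, 6 with no filter on low counts and 3 at FC above 3, and lay between 0 and 4 with a sample left out. All genes called there went from 220 to 556 with no filter, 569 with the replicate block and 98 at FC above 3, and between 0 and 571 with a sample left out (0 without mutant replicate 2, 16 without mutant replicate 1). In all nuclei summed the members called went from 0 to 1 (Il27ra) with DESeq2 and with the replicate block, and all genes called from 0 to 65 and 121, respectively, and between 0 and 17 with a sample left out. In the other types the count of member calls went from 0 to 1 with no filter (Dhrs7 in astrocytes, -1.44). For the difference between DGCs and the mean of the other types the members called went from 1 to 3, and all genes called from 69 to 256, when the other nuclei were pooled. With a sample left out they lay between 0 and 1 and between 4 and 57, and in the pooled contrast between 0 and 3 and between 72 and 218. The lowest values came without mutant replicate 2. In that setting neither Sox4 nor Dhrs7 had a test against the mean of the types. Each had no UMI in some types of mutant replicate 1, so the lack of a member call there is not a lost call. The share of DGC nuclei with any member was 8.26 percentage points higher in controls after thinning to 1500 UMIs, 17.1 after thinning to 3000 and 28.8 with no thinning. By mean level the members ranked first in DGCs went from 3 in controls (Robo3 within its spread of the next types) to 1 in mutants (Lct, within its spread of CA1), and the members with a lower level per positive nucleus from 0 to 1 after thinning to 1500 UMIs. Dhrs7 in bulk turned from -0.01 to 0.24 without mutant replicate 1 and to 0.00043 without control replicate 1 (lowest -0.31), and Sox4 in all nuclei from 0.03 to -0.11 without mutant replicate 2 and to -0.06 without control replicate 1 (highest 0.15). The cause of these shifts was not tested.

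The labels give no pairing of mice, so the number was not taken as a pairing. Samples with the same number deviated together with a correlation of 0.0644 in bulk, 0.193 in DGC nuclei and 0.516 in all nuclei. In bulk the number also divides the libraries by Xist and Ddx3y, and whether it marks anything else the samples share was not tested. With the replicate block 6 of 6 members were called lower in DGC nuclei, which adds Nptx2 (adjusted p = 0.0175 in edgeR) and Il27ra (0.0137), and 0 in bulk.

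Of the members' other values, 100 of 112 kept their direction and their side of the threshold across the other settings, and 83 of 100 with a sample left out. A value that was not called and stayed so counts among those kept, and some settings change only the threshold of the same fit. In DGC nuclei the calls of Lct, Sox4, Dhrs7 and Robo3 were all lost without mutant replicate 1, and also without mutant replicate 2. The low UMI counts of mutant replicate 1 limit every value in DGC nuclei.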
